A study of Mus musculus with 10 samples.

Results

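The subject here is a set of 37 genes of macrophages and other phagocytes, measured in whole back skin of C57BL/6J mice that were 9 weeks old when the experiment began. The genes were listed by name, and each was taken from the deposited array values through the symbol of its probe set (the group of probes that reads 1 gene). Of the 37 genes, 34 had a named probe set, 1 each, among the 19505 genes with a symbol, and 33 passed a filter on low values. Cd68, Clec7a and Spp1 were not analysed here, and Cx3cr1, the fractalkine receptor, read under the background median of 5.44 on all 10 arrays and was not tested.

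Gene expression was read on 10 arrays. In 4 expanded samples a silicon expander under the skin had been enlarged stepwise with PBS (phosphate-buffered saline), and in 4 non-expanded samples the device was implanted but left unfilled, so the controls of the expansion carry an implant too. Days 0, 7, 14 and 21 after full injection were read once in each arm. The other 2 arrays were of wildtype skin with no implant, 1 with resting hair follicles (telogen) and 1 with growing ones (anagen), together called skin without surgery. The labels do not say how many animals an array holds or whether arrays came from separate animals, so p-values measure only the spread between these arrays, which may be technical. Where an arm is compared with skin without surgery, its 4 days served as replicates, and telogen and anagen as those of skin without surgery. The standard errors and p-values there thus hold changes with day and hair stage too. Where the arms are compared by day, the spread is that of their difference between days. The number of arrays limits the precision of every value.

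Macrophages are phagocytes that take up and digest debris, microbes and dead cells, and skin holds resident ones as well as others that arise from blood monocytes. They are kept alive by the cytokine CSF1 through its receptor CSF1R, recognise antibody-coated or altered targets through Fc and scavenger receptors, and digest what they engulf in lysosomes. Around implanted material they take part in the foreign body response, and in wounds they succeed the neutrophils. Many genes of the set are used by monocytes, neutrophils or dendritic cells as well.

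Signals are given as log2 values as deposited; the labels state neither their base nor their normalization. A difference of 1 is 2-fold. Levels are compared between arrays for 1 gene and never between genes. Array medians lay between 6.27 and 6.45, and of the 34 measured genes 31 read above the background median on all 10 arrays. In these whole-skin samples, fewer cells of a type and less RNA per cell cannot be told apart. The panleukocyte marker Ptprc (CD45), the macrophage marker Adgre1 (F4/80) and Csf1r all read above background on every array, and the keratinocyte list, as a check of the tissue, had mean log2 levels of 13.85 to 15.55 over the 10 arrays. Some arrays stood apart. The non-expanded array of day 7 was the highest of all 10 for 19 of the 33 tested members, against 10.3% of all 13653 genes tested. The non-expanded array of day 14 was the lowest of its arm for 31 of 33, against 23.3% of all genes.

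**Figure D1:**
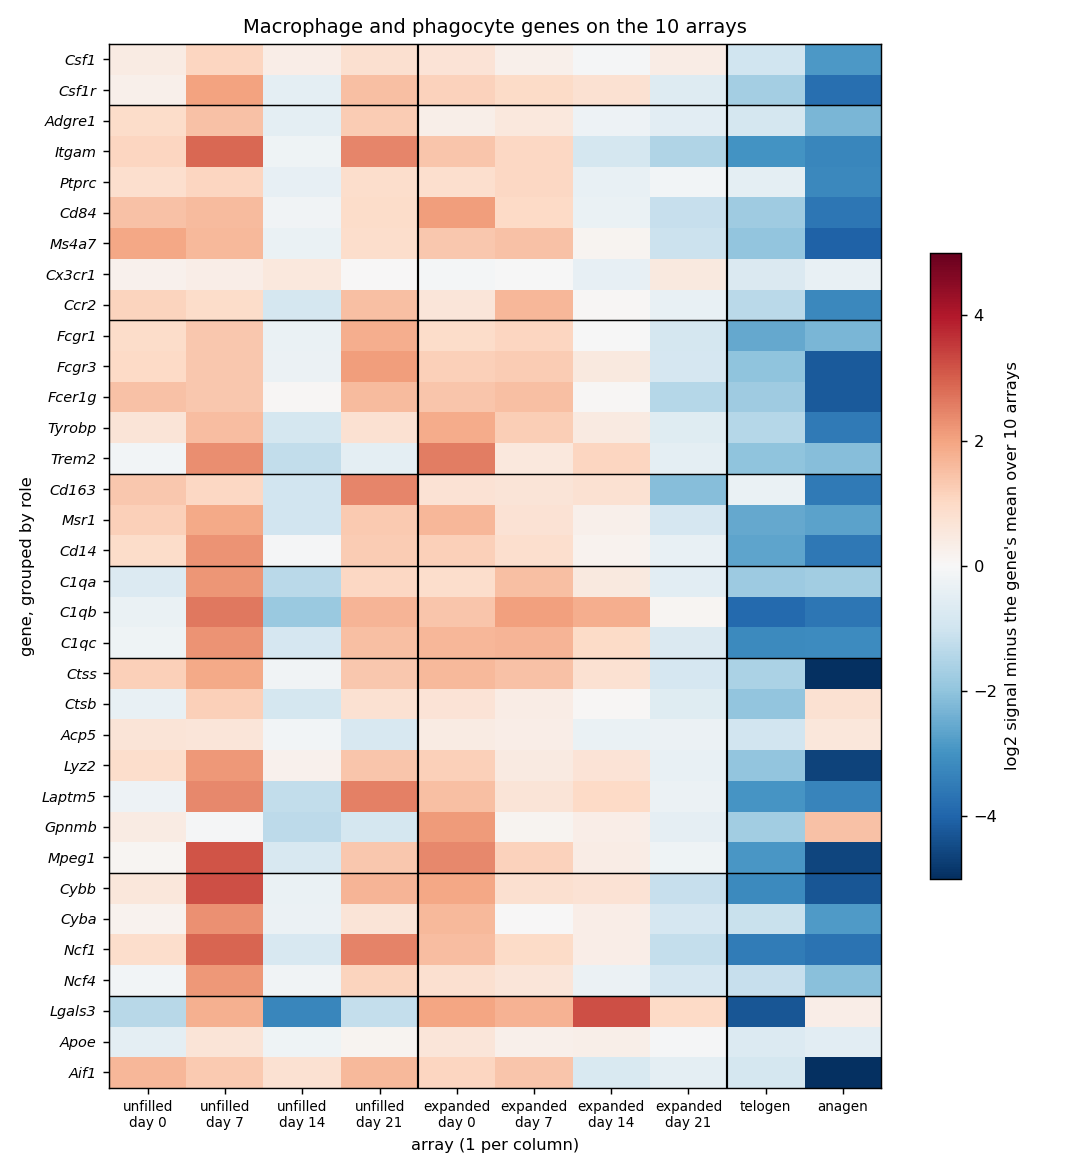
Log2 signal of the 34 measured macrophage and phagocyte genes (rows, grouped by role) on the 10 arrays (columns), shown as the difference from each gene's mean over the arrays; "unfilled" marks the non-expanded arm. The telogen and anagen columns are low for most genes, the non-expanded array of day 7 is high, and that of day 14 is low within its arm.

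Promoters of the set were examined for the core letters bound by PU.1 (encoded by Spi1), the transcription factor that directs myeloid cell fate. RefSeq promoter windows of the GRCm38.p6 build, from 250 bases before to 50 bases after a gene's start, were found for 29 of the 37 members (38 windows). The letters GAGGAA, searched on both strands, occurred in 20 of the 38 windows (52.6%), against 28.3% of all 32851 windows of the same length. The longer GAGGAAG, which contains the shorter motif, occurred in 9 windows (23.7%), against 13.6%. TATAAA, searched in the same way as a motif of another kind, occurred in 6 (15.8%), against 13.6%. Several starts of a gene count as separate windows, and those of Clec7a and of Fcgr3 overlap and share the motif. Counted by gene, GAGGAA occurred in 17 of the 29 members and GAGGAAG in 8. These include Clec7a, Cd68 and Spp1 for the shorter motif and Spp1 for the longer, which were not measured. The share of all genes counted in this way was not computed. The measured members with the whole of GAGGAAG or its reverse complement in the 250 bases before the start are shown, as examples of the longer motif. The count of 9 also holds windows of Ctss, where the motif begins 1 base before the start, of Spp1, and of another start of Fcgr3. Each is written 5′ to 3′ on the gene's own strand, with the motif in capitals.
C1qc (chr4:136893077-136893133, minus strand): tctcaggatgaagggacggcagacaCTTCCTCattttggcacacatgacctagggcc
Fcgr1 (chr3:96293994-96294050, minus strand): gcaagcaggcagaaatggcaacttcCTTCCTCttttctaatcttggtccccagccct
Fcgr3 (chr1:171059395-171059435, minus strand): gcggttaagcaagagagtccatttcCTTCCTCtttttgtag
Itgam (chr7:128062531-128062587, plus strand): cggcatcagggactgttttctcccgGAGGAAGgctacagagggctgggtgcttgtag
Laptm5 (chr4:130913252-130913308, plus strand): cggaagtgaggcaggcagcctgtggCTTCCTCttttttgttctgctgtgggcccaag
Trem2 (chr17:48346335-48346391, plus strand): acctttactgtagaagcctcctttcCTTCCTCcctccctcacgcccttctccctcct
The first letter of the motif lay 194 bases before the start in C1qc, 84 in Itgam, 56 in Fcgr1, 41 in Trem2, 39 in Laptm5 and 16 in Fcgr3. A match of letters is a description of the sequence and not evidence of binding. Spi1 itself, which is not a member, read 15.67 to 17.36 on the non-expanded arrays, 14.35 to 16.68 on the expanded arrays, 14.45 in telogen and 10.66 in anagen. Other myeloid transcription factors mostly differed less. Of the 9 tested, Spi1 among them, 6 stood higher over the unfilled expander than without surgery, with a median of 0.39, against 50.7% of all genes. A part of PU.1 in the members' levels was not tested.

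The comparison of skin over an unfilled expander with skin without surgery asks how the implant and its surgery together were accompanied by phagocyte genes. No array had surgery without a device, so implant and operation cannot be told apart. The labels give no hair stage for the expander arrays, so hair stage may differ as well. The list of hair shaft and root sheath genes averaged 4.50 to 8.95 on the non-expanded arrays and 5.07 to 12.84 on the expanded ones. It averaged 6.99 in telogen and 16.71 in anagen. Anagen was the lowest of all 10 arrays for 24 of 33 members, against 25.3% of all genes. Every difference from skin without surgery averages telogen with anagen, also those of single genes given further on. Nearly the whole set stood higher over the unfilled expander: 32 of 33 members had a difference above 0, with a median log2 difference of 3.49 (range -0.33 to 5.03), against a median of 0.01 over all genes tested, of which 50.7% lay above 0. All 4 non-expanded arrays lay above both arrays without surgery for 28 of 33 members, against 11.5% of all genes. In the limma fit of all 10 arrays, 0 of 33 members and 0 of 13653 genes passed an adjusted p of 0.05 (Benjamini-Hochberg over all genes tested), or 0% (lowest member adjusted p = 0.0646, for Cd14). At an unadjusted p under 0.05 there were 28 members, all higher, against 9.42% of all genes in that direction. Without the non-expanded array of day 14 the median was 3.98, and 12 members passed the adjusted threshold, among 112 of the 13653 genes. Without that of day 7 the median was 3.15, and 0 genes passed. Against telogen alone (without anagen) the median was 2.63. Against anagen alone (without telogen) it was 4.05, and 23 members passed. The lone array without surgery was then assumed to vary like the other groups, and 2645 genes passed in all.

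The expanded arm, set against the same 2 arrays without surgery, was read in the same fit. All 33 members had a difference above 0 (50.6% of all genes), with a median difference of 3.12 (range 0.23 to 5.10), against 0.01 over all genes. All 4 expanded arrays lay above telogen and anagen for 29 of 33 members, against 14% of all genes. Here 1 member, Cd14, passed an adjusted p of 0.05 in limma, against 0.447% of all genes called higher (61 of 13653) and 0.476% called in either direction. Leaving out telogen gave 16 members and 1850 genes, and leaving out the expanded array of day 21 gave 2 members. Leaving out anagen or the expanded array of day 0, 7 or 14 gave 0 members. Apart from the fit without telogen, the number of all genes passing is not set beside these counts, so they have no comparison. At an unadjusted p under 0.05 there were 29 members, against 10.7% of all genes. Both comparisons share the telogen and anagen arrays, so their likeness is not independent. All 8 expander arrays lay above both arrays without surgery for 28 of 33 members, against 8.1% of all genes. The 5 others were Cd163, Ctsb, Acp5, Gpnmb and Lgals3.

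**Figure D2:**
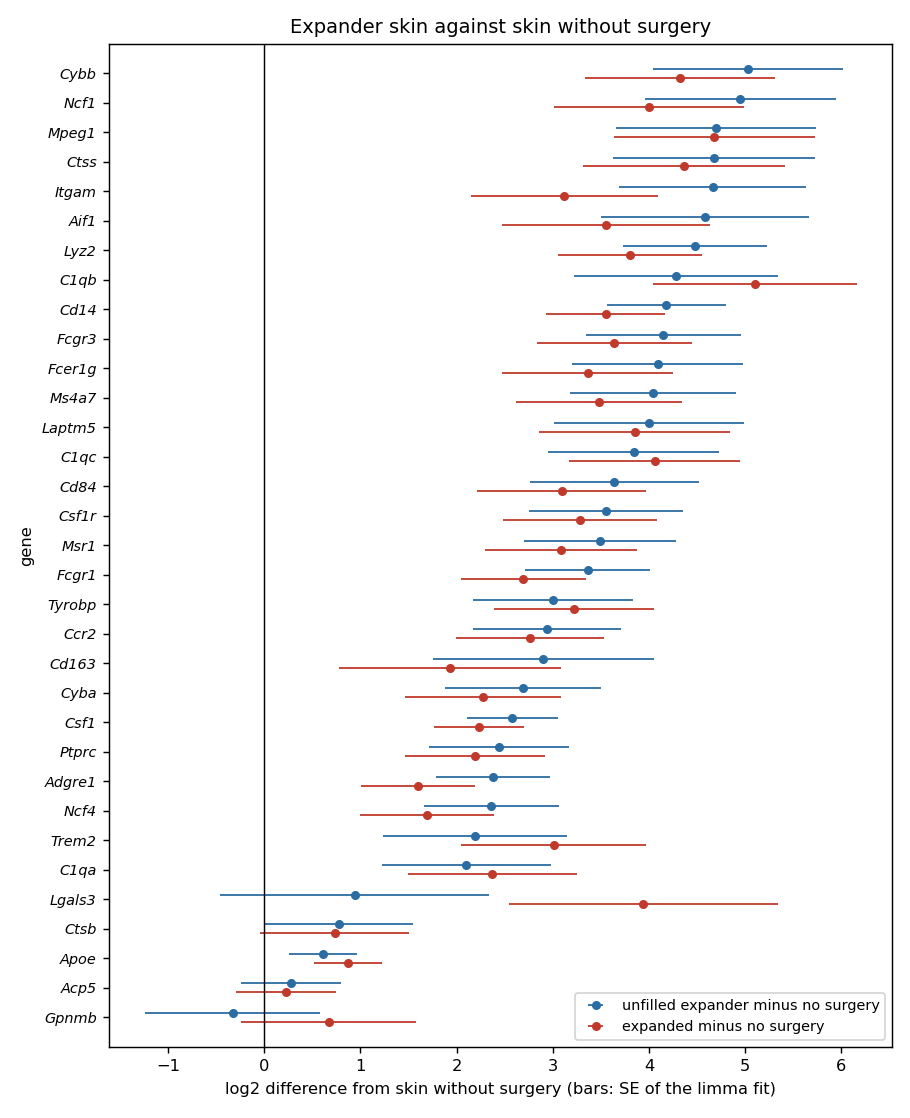
Log2 difference from skin without surgery (horizontal axis) for the 33 tested members, for the unfilled expander (blue) and the expanded arm (red), each with the standard error of the limma fit of 10 arrays. Cybb stands highest over the unfilled expander at 5.03, and Gpnmb is the 1 gene below 0, at -0.33.

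Both the growth factor and its receptor read higher over the expander. Csf1r, the receptor on which macrophages depend (chromosome 18, 61105572 to 61131139, mm10), read 13.22, 14.95, 12.48 and 14.44 in non-expanded skin at days 0, 7, 14 and 21. In expanded skin it read 14.11, 13.90, 13.70 and 12.30, and in telogen and anagen 11.26 and 9.19. The 8 expander arrays thus all lay above both arrays without surgery, while the arms overlapped. Its difference from skin without surgery was 3.55 ± 0.80 (SE) in the non-expanded and 3.28 ± 0.80 in the expanded arm (limma adjusted p = 0.0931 and 0.0874). Csf1, its ligand (chromosome 3, 107741048 to 107760469), differed by 2.58 ± 0.47 and 2.23 ± 0.47 and varied little within the arms, from 13.33 to 14.47 over the 8 expander arrays, with 12.42 in telogen and 10.55 in anagen.

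Among surface markers, Adgre1 (chromosome 17, 57358581 to 57483529) read 10.34, 10.89, 8.93 and 10.72 on the 4 non-expanded days in order. It read 9.72, 9.96, 9.18 and 8.89 in expanded skin, 8.54 in telogen and 7.14 in anagen. The lowest expander arrays, non-expanded day 14 and expanded day 21, came within a log2 unit of telogen. The difference from skin without surgery was 2.38 ± 0.59 without and 1.60 ± 0.59 with expansion (limma adjusted p = 0.108 and 0.215). Ptprc, which encodes a phosphatase on all leukocytes, read 12.42, 12.67, 11.18 and 12.47 over the unfilled expander and 12.43, 12.65, 11.21 and 11.46 in expanded skin. Telogen, at 11.11, lay just under the lowest of these, and anagen at 8.39 far under.

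Itgam, the CD11b integrin chain of monocytes, macrophages and neutrophils (chromosome 7, 128062640 to 128118491), read 11.72, 13.53, 10.41 and 13.10 over the unfilled expander. It read 12.04, 11.66, 9.77 and 9.12 in expanded skin, against 7.67 in telogen and 7.39 in anagen. The expanded arrays thus lay lower with each later day, and the day 21 arrays of the arms stood farthest apart. Its difference from skin without surgery was 4.66 ± 0.97 in the non-expanded and 3.12 ± 0.97 in the expanded arm. Ms4a7, a membrane protein of macrophages, read 13.83, 13.55, 11.59 and 12.81 without expansion, 13.27, 13.39, 12.05 and 10.85 with it, 9.93 in telogen and 7.88 in anagen. Cd84, a receptor of the SLAM family on leukocytes, read 12.02, 12.13, 10.39 and 11.49 without and 12.66, 11.55, 10.23 and 9.40 with expansion, against 8.80 and 6.93. All expander arrays stood above both arrays without surgery for these 3 genes. Ccr2, the receptor that draws monocytes out of the blood, differed from skin without surgery by 2.94 ± 0.77 and 2.76 ± 0.77.

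The Fc receptors and the adaptor chains through which activating receptors signal stood higher together. Fcer1g, the common gamma chain of activating Fc receptors (chromosome 1, 171229572 to 171234349), read 12.76, 12.62, 11.35 and 12.85 over the unfilled expander. In expanded skin it read 12.66, 12.77, 11.34 and 9.86, with 9.52 in telogen and 7.08 in anagen. On the first 3 days the arms lay within 0.15 of each other, and at day 21 the expanded array lay close to telogen. Its differences from skin without surgery were 4.09 ± 0.89 and 3.36 ± 0.89. Fcgr1 and Fcgr3, receptors for IgG, differed by 3.36 ± 0.65 and 4.15 ± 0.81 in the non-expanded arm and by 2.69 ± 0.65 and 3.64 ± 0.81 in the expanded arm. Fcgr3 has close relatives among the Fc receptor genes, so part of its signal may come from them. Tyrobp (DAP12), the adaptor of TREM2, differed by 3.00 ± 0.83 and 3.22 ± 0.83. Trem2, a lipid-sensing receptor of macrophages (chromosome 17, 48346401 to 48352276), read 7.60, 10.08, 6.52 and 7.27 without and 10.33, 8.29, 8.82 and 7.28 with expansion, against 5.74 in telogen and 5.61 in anagen. The 2 arrays above 10 were non-expanded day 7 and expanded day 0.

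Of the scavenger and pattern receptors, Cd14, a co-receptor for bacterial lipopolysaccharide (chromosome 18, 36725064 to 36726815), read 9.10, 10.42, 8.12 and 9.44 over the unfilled expander. It read 9.37, 9.01, 8.35 and 7.81 in expanded skin, 5.56 in telogen and 4.62 in anagen, the last of these under background. No expander array came near the arrays without surgery. Cd14 rose in expanded skin against skin without surgery by 3.55 ± 0.62 (limma adjusted p = 0.0444). The mean without surgery, 5.09, lay under background, so the size has no exact value: with anagen raised to the background median, the difference was at least 3.14 in expanded and at least 3.77 in non-expanded skin. On the measured values it differed by 4.18 ± 0.62 in non-expanded skin (adjusted p = 0.0646), without passing. The call of Cd14 ended without the expanded array of day 0, 7 or 14, without anagen, with no filter on low values, with values above 16 set to 16 and in a fit of the 6 arrays compared, while its difference stayed between 3.08 and 3.64 in these. Msr1, a scavenger receptor for modified lipoproteins, differed by 3.49 ± 0.79 and 3.08 ± 0.79.

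Cd163, the scavenger receptor for haemoglobin bound to haptoglobin (chromosome 6, 124304636 to 124330529), did not follow the others in skin without surgery. It read 13.70, 13.38, 11.36 and 14.78 over the unfilled expander, and 13.05, 12.99, 13.09 and 10.19 in expanded skin. Telogen, at 12.01, lay above the lowest array of each arm, and anagen read 8.79. At day 21 the 2 arms were 4.59 apart, the highest and the lowest expander reading of this gene.

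The chains of C1q, which starts the classical complement pathway and is made largely by macrophages, are encoded side by side on chromosome 4. They stood above skin without surgery on all 8 expander arrays, C1qa by less than C1qb and C1qc. C1qa read 9.20 at non-expanded day 14, against 8.70 in telogen and 8.78 in anagen. C1qb (136880126 to 136886200), named here after its values were seen, read 10.75, 13.73, 9.23 and 12.79 over the unfilled expander. It read 12.49, 13.14, 12.91 and 11.21 in expanded skin, against 7.20 in telogen and 7.49 in anagen. The non-expanded arm swung widely and the expanded arm much less. C1qb differed from skin without surgery by 4.28 ± 1.06 without and 5.10 ± 1.06 with expansion (limma adjusted p = 0.108 and 0.063), the latter the largest difference of the set in that comparison. C1qc differed by 3.84 ± 0.89 and 4.06 ± 0.89, and C1qa by 2.10 ± 0.88 and 2.37 ± 0.88. Telogen and anagen read nearly alike for all 3, with anagen minus telogen at 0.08, 0.29 and 0.06 for C1qa, C1qb and C1qc.

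Genes of the lysosome and of microbial killing fell into separate groups. Mpeg1, which encodes a pore-forming protein of macrophages (chromosome 19, 12460770 to 12465285), read 11.09, 14.15, 10.17 and 12.33 over the unfilled expander. It read 13.39, 12.13, 11.37 and 10.76 in expanded skin, 8.08 in telogen and 6.39 in anagen. Ctss, the cathepsin S protease of antigen-presenting cells (chromosome 3, 95526786 to 95556405), read 16.35, 17.02, 14.96 and 16.48 without and 16.75, 16.59, 15.90 and 14.32 with expansion, 13.57 in telogen and 9.48 in anagen. Laptm5, a lysosomal membrane protein of blood cells (chromosome 4, 130912890 to 130936148), read 11.82, 14.46, 10.84 and 14.61 without and 13.58, 12.71, 13.07 and 11.78 with expansion, 9.11 in telogen and 8.76 in anagen. None of the 8 expander arrays overlapped telogen or anagen for these genes. The differences from skin without surgery were 4.70 ± 1.04, 4.68 ± 1.05 and 4.00 ± 0.99 in the non-expanded arm for Mpeg1, Ctss and Laptm5. Lyz2, a lysozyme of phagocytes, differed by 4.48 ± 0.75 and 3.80 ± 0.75; its near-identical copy Lyz1 may share the signal.

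Ctsb, Acp5 and Gpnmb, which other cells of skin also make, did not stand higher over the expander than in both hair stages. Gpnmb, a glycoprotein of macrophages and pigment cells (chromosome 6, 49036518 to 49058182), read 13.38, 12.92, 11.66 and 12.11 without and 15.10, 13.14, 13.33 and 12.52 with expansion. Telogen read 11.24, but anagen read 14.46, above every expander array except expanded day 0. Acp5, tartrate-resistant acid phosphatase (chromosome 9, 22126727 to 22135746), read 10.41, 10.37, 9.63 and 8.95 without and 10.16, 10.08, 9.44 and 9.48 with expansion, 8.79 in telogen and 10.32 in anagen. Ctsb, a lysosomal protease of many cell types, differed from skin without surgery by 0.78 ± 0.77 and 0.73 ± 0.77.

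Among the subunits of the phagocyte NADPH oxidase, which makes superoxide in the phagosome, Cybb and Ncf1 showed the largest differences of all members over the unfilled expander, while Cyba and Ncf4 lay below the median of the set. Cybb, its catalytic gp91phox chain (chromosome X, 9435252 to 9487766), read 13.13, 15.81, 12.24 and 14.27 over the unfilled expander. In expanded skin it read 14.50, 13.36, 13.31 and 11.44, against 9.40 in telogen and 8.28 in anagen. Even the lowest expander array, expanded day 21, lay above telogen. Cybb differed by 5.03 ± 0.99 (32.6-fold) without and 4.32 ± 0.99 with expansion (limma adjusted p = 0.0739 and 0.0749). Ncf1, the p47phox organiser (chromosome 5, 134220053 to 134229628), read 11.32, 13.33, 9.65 and 12.93 without and 11.98, 11.40, 10.77 and 9.26 with expansion, 6.95 in telogen and 6.76 in anagen, and differed by 4.95 ± 0.99 and 4.00 ± 0.99. Cyba and Ncf4, the p22phox and p40phox subunits, differed by 2.69 ± 0.81 and 2.36 ± 0.70 in the non-expanded arm.

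The remaining members did not share 1 pattern. Aif1 (IBA1), an actin-bundling protein of macrophages (chromosome 17, 35170986 to 35176083), read 12.54, 12.20, 11.66 and 12.51 without and 11.97, 12.27, 10.15 and 10.40 with expansion, 10.03 in telogen and 5.26, under background, in anagen. Apoe, the lipid carrier, read 17.63 to 18.98 over all 10 arrays and differed by 0.61 ± 0.35 and 0.87 ± 0.35. Lgals3, galectin-3, a lectin of macrophages that keratinocytes also make (chromosome 14, 47373860 to 47386167), read 9.91, 13.06, 8.03 and 10.11 without and 13.27, 13.03, 14.53 and 12.29 with expansion. Telogen read 7.03 and anagen 11.64, so that anagen lay above 3 of the 4 non-expanded arrays and under all 4 expanded arrays.

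Anagen and telogen skin, with 1 array each and no test, differed within the set. In anagen 17 of 33 members read at least 2-fold lower than in telogen, against 20.4% of all genes, and 4 read at least 2-fold higher, against 23.5%. The members' median of anagen minus telogen was -1.12, against -0.01 over all genes. Ctss stood at -4.09. Aif1 in anagen was under background, and with it raised to the background median the difference was -4.59, so that anagen lay at least that far below telogen. The 4 higher ones were Lgals3, Gpnmb, Ctsb and Acp5, at 4.61, 3.22, 2.74 and 1.53. On the anagen array the fibroblast list averaged 15.12, against 16.60 in telogen, the keratinocyte list 13.85 against 14.91, and the list of hair shaft and root sheath keratins and partners 16.71 against 6.99. Their part in the lower members of anagen was not tested.

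Expanded skin was then compared with non-expanded skin of the same day, which asks what stretching added to the implant. Most members read lower with expansion, and none passed the test. The members' median difference was -0.35 (range -1.54 to 3.00), with 8 of 33 above 0, against 0.02 and 52.5% over all genes. In limma with the day as a block, 0 of 33 members and 0 of 13653 genes passed an adjusted p of 0.05 (0%; lowest member adjusted p = 0.467). At an unadjusted p under 0.05 there were 3 members, 2 higher and 1 lower, against 4.83% and 3.98% of all genes. In 0 of 33 members did the 4 expanded arrays lie all above or all below the 4 non-expanded arrays, against 2.97% and 1.87% of all genes. Without day 7 and without day 14 the median was -0.20 and -0.76, and without day 21 it was 0.16, on the other side of 0. With 4 pairs an exact permutation test of 1 gene cannot go below p = 0.125.

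The members at an unadjusted p under 0.05 were Lgals3, Gpnmb and Aif1. Lgals3 differed by 3.00 ± 0.94 (limma adjusted p = 0.467), with a mean of 13.28 ± 0.93 over the expanded arrays and 10.28 ± 2.08 over the non-expanded ones (SD, n = 4), and was higher on 3 of 4 days. Without day 14, when the arms were 6.50 apart, it differed by 1.83, and without day 7 by 4.01. Gpnmb differed by 1.00 ± 0.34 (adjusted p = 0.493) and was the 1 member higher in expanded skin on all 4 days, as were 9.18% of all genes. Aif1 differed by -1.03 ± 0.39 (adjusted p = 0.528) and was higher in expanded skin on 1 day. The largest negative difference was that of Itgam, at -1.54 ± 0.66 (adjusted p = 0.58). Cd163 and Ncf1 followed Aif1 at -0.97 ± 0.92 and -0.96 ± 0.79, and Adgre1, Csf1r and Ptprc differed by -0.78 ± 0.35, -0.27 ± 0.58 and -0.25 ± 0.27. Without day 21, Cd163 and Csf1r changed sign, to 0.23 and 0.35, and Ptprc stood at 0.00. Without that day Itgam, Aif1, Adgre1 and Ncf1 differed by -0.73, -0.67, -0.43 and -0.05.

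On single days, with 1 array a side and no test, the sign of the set alternated. At day 0 the members' median was 0.65, and 13 of 33 read at least 2-fold higher in expanded skin, against 9.49% of all genes. At day 7 it was -0.58, with 12 at least 2-fold lower, against 9.43%. At day 14 it was 0.93, with 14 at least 2-fold higher, against 11.4%. At day 21 it was -1.86, with 27 of 33 at least 2-fold lower, against 6.13%. Over all genes the medians on the 4 days were 0.05, -0.06, 0.04 and 0.05. At day 21 the member that still stood at least 2-fold higher in expanded skin was Lgals3, at 2.17, against 6.69% of all genes.

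**Figure D3:**
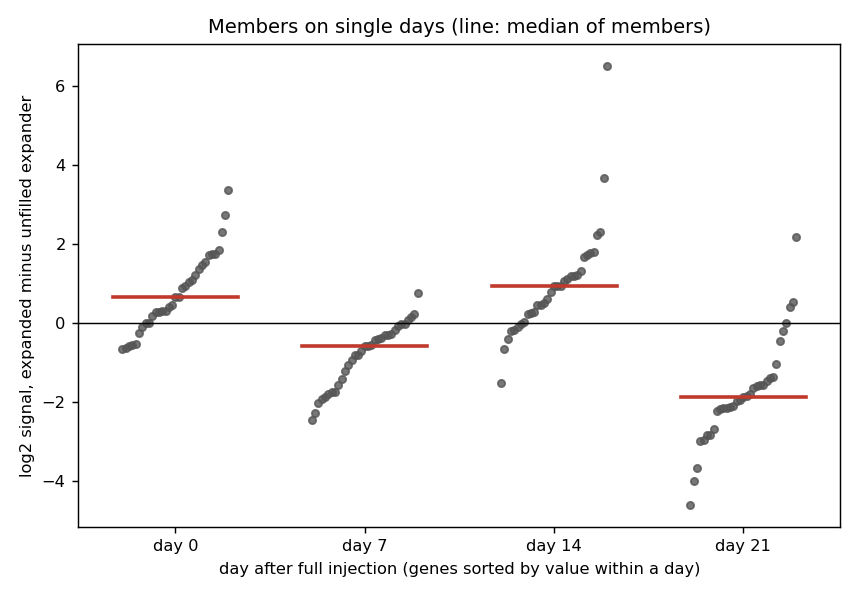
Log2 signal in expanded minus non-expanded skin (vertical axis) for each of the 33 tested members on the 4 days (horizontal axis; genes sorted by value within a day; red line, median of the members). The medians are 0.65, -0.58, 0.93 and -1.86 at days 0, 7, 14 and 21.

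Each arm was then followed over its own days. In expanded skin the members' mean log2 level was 12.89, 12.52, 11.94 and 10.96 at days 0, 7, 14 and 21, lower at each later day, against 9.60 in telogen and 8.69 in anagen. Day 21 was the lowest expanded array for 29 of 33 members, against 29.6% of all genes. A straight line over the days, given as the change over 21 days, sloped down for all 33 members, with a median of -2.05 (range -3.34 to -0.41), against 0.01 over all genes, of which 50.8% sloped up. In limma 0 of 33 members and 0 of 13653 genes (0%) passed an adjusted p of 0.05 for this slope, with an adjusted p of 1 for every member. At an unadjusted p under 0.05 there were 8 members, all downward, against 1.3% of all genes. They were Cd84, Itgam, Fcer1g, Ms4a7, Tyrobp, Ctss, Gpnmb and Aif1, with slopes of -3.34 ± 0.68, -3.20 ± 1.28, -2.95 ± 0.81, -2.58 ± 0.83, -2.45 ± 0.91, -2.40 ± 0.88, -2.27 ± 0.68 and -2.05 ± 0.72. Leaving out both arrays of day 0, 7, 14 or 21 gave 3, 13, 14 and 1 such members, and the median slope stayed between -2.39 and -1.43. For these fits the share of all genes at that p was not computed, so the counts have no comparison.

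Non-expanded skin showed no such course. Its members' mean level was 12.12, 13.34, 10.97 and 12.71 at days 0, 7, 14 and 21. From day 7 to day 14, all 33 members read lower, with 29 of them at least 2-fold lower, against 12.5% of all genes. From day 14 to day 21, 32 of 33 read higher, 26 at least 2-fold, against 9.71%. The slope over the 21 days had a median of -0.13, with 14 of 33 above 0 (50.3% of all genes) and 0 members past an adjusted p of 0.05 in limma (0% of all genes). At an unadjusted p under 0.05 there was 1 member, Acp5, downward, against 1.64% of all genes. Acp5 had a slope of -1.54 ± 0.43 (adjusted p = 0.991). Without day 7, 14 or 21 there were 2 such members, again with no share of all genes computed, and the median slope was 0.29, 0.28 and -1.86.

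The slopes of the arms differed by a median of -1.83, with 2 of 33 members above 0, against 50.4% of all genes. In limma 0 of 33 members and 0 of 13653 genes passed an adjusted p of 0.05 for this difference (0% called), and 1 member, Cd84, had an unadjusted p under 0.05 and a lower slope with expansion, against 0.674% of all genes. Its slope difference was -2.34 ± 0.97 (adjusted p = 0.999), and that of Itgam, the largest, was -3.50 ± 1.82 (adjusted p = 0.999). Without day 7 and without day 14 there were 7 and 12 such members, with a median of -2.24 and -2.44. Here too the share of all genes was not computed. Without day 21 the median slope difference was 0.13, so the median rests on the day 21 arrays.

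**Figure D4:**
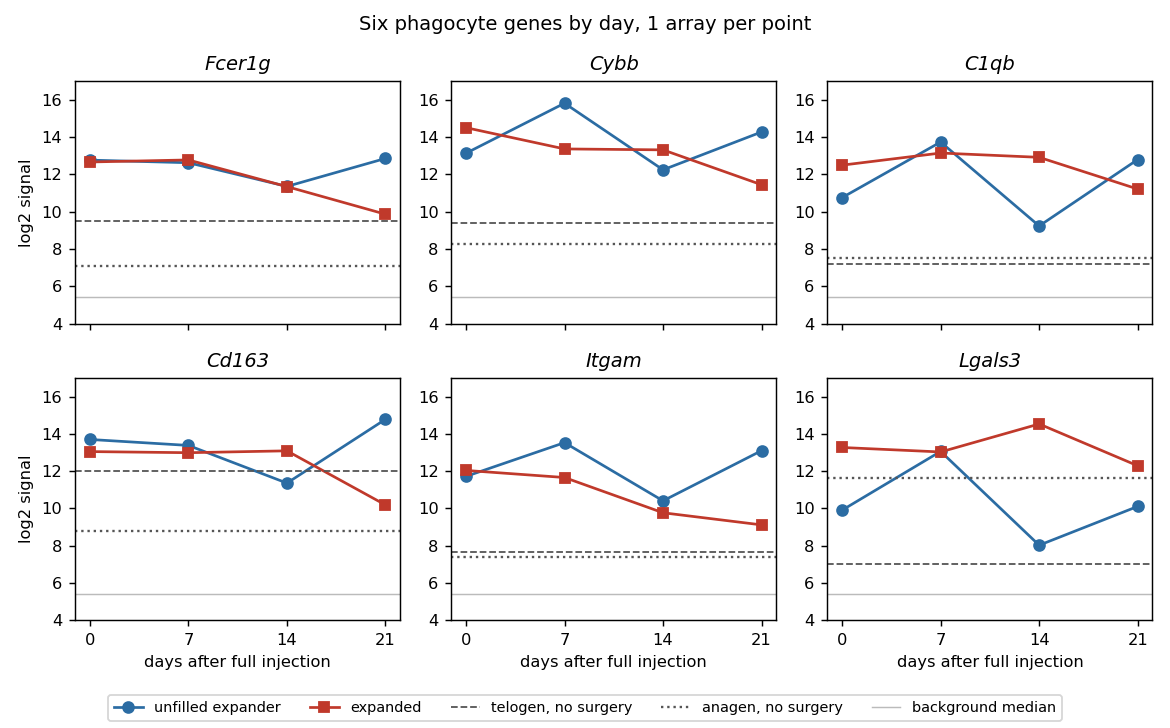
Log2 signal (vertical axis) of 6 members by day after full injection (horizontal axis) in non-expanded skin (blue circles, over an unfilled expander) and expanded skin (red squares), 1 array per point, with telogen (dashed), anagen (dotted) and the background median (grey) as lines. Fcer1g runs together in both arms until day 14 and parts at day 21, while Lgals3 is higher in expanded skin at days 0, 14 and 21.

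Other genes of the phagocyte pathways were counted from lists fixed by name. Over the unfilled expander, all 20 other phagocytic and pattern receptors stood higher than in skin without surgery, with a median of 1.94 and 13 at an unadjusted p under 0.05. Over all genes 50.7% stood higher and 9.42% did so at that p, with a median of 0.01. Among them, Fcgr2b, the inhibitory IgG receptor, and Mrc1, the mannose receptor, differed by 4.45 and 3.31. The differences of the list ran from 0.18 for Timd4 to 4.47 for Tlr13, with Cd36, Mertk and Axl at 0.35, 0.67 and 0.82. Genes of phagocyte signalling, such as the kinase Syk, stood higher in 15 of 15, with a median of 2.14. Plek, a substrate of protein kinase C in leukocytes, rose in expanded skin by 4.68 (limma adjusted p = 0.0393), the 1 gene of these lists past the threshold. Lysosomal enzymes and membrane proteins stood higher in 18 of 18, with a median of 1.63, and myeloid transcription factors in 6 of 9, with a median of 0.39. The lipid handling list stood higher in 4 of 6, with a median of 0.25, other colony-stimulating factors and receptors in 6 of 6, with a median of 0.78, and other oxidase subunits in 2 of 2, with a median of 0.44. In the comparison of the arms and in that of the unfilled expander 0 genes of these 7 lists passed. Along the days of expanded skin, 18 of 18 lysosomal genes, 15 of 15 signalling genes and 19 of 20 receptors sloped down, with medians of -1.26, -1.12 and -1.27, where 50.8% of all genes sloped up.

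Markers of other cells moved with some of these differences; each list is averaged over its genes that passed the filter. The neutrophil list (10 of 11 genes measured, 6 with a mean under background, 7 averaged) read 6.48 to 9.55 in non-expanded, 6.21 to 9.81 in expanded skin and 5.18 to 5.34 without surgery. Over the unfilled expander S100a9, S100a8, Retnlg, Cxcr2 and Mmp8 differed from skin without surgery by 4.87, 4.81, 4.51, 1.80 and 1.63, and Mpo and Elane by 0.03 and -0.18. Retnlg read 12.90 at non-expanded day 0. Mmp8, Ngp, Camp, Ltf, Mpo and Elane had means under background. Monocyte markers (7 of 8 measured) averaged 9.85 to 10.90, 9.93 to 10.70 and 7.65 to 8.69 in the same groups. Mast cell markers (8 of 8) averaged 8.16 to 8.63, 8.63 to 9.40 and 7.32 to 7.71. The endothelial list averaged 8.90 to 9.98, 8.83 to 9.99 and 7.70 to 8.92, so that telogen, at 8.92, lay above the lowest array of each arm. The dendritic and Langerhans cell list averaged 9.80 to 10.69, 9.65 to 10.72 and 7.32 to 10.02, so that telogen lay among the expander arrays. All 4 measured B cell markers lay under background. T cell markers averaged 6.48 to 7.02, 6.39 to 7.26 and 5.61 to 6.73, with telogen, at 6.73, among the expander arrays. The fibroblast list averaged 16.32 to 17.62, 16.64 to 17.24 and 15.12 to 16.60. The keratinocyte list averaged 14.18 to 15.48, 15.14 to 15.55 and 13.85 to 14.91. Over the unfilled expander 7 of 7 fibroblast and 7 of 9 keratinocyte genes stood higher than without surgery, with medians of 0.82 and 0.73. The immediate early genes, which handling of tissue can raise, averaged 9.57 to 11.54 in non-expanded skin, up to 13.33 in expanded skin and 8.63 to 9.31 without surgery. Fosb, of that list, rose in expanded skin against skin without surgery by 7.56 (limma adjusted p = 0.0259). Skeletal muscle genes averaged 16.04 to 16.75, 13.88 to 16.21 and 13.48 to 17.22 in the same groups. The osteoclast list averaged 9.09 to 10.53, 9.92 to 11.33 and 8.04 to 9.09, and the NK cell list, with 2 genes averaged, 5.33 to 6.80, 4.56 to 6.25 and 4.73 to 4.86. Other lists went the other way. The adipocyte list averaged 9.05 to 11.25, 9.42 to 10.12 and 11.11 to 11.19, and the hair list 4.50 to 8.95, 5.07 to 12.84 and 6.99 to 16.71. In these lists 0 of 7 and 0 of 6 tested genes stood higher over the unfilled expander than without surgery, against 50.7% of all genes. The part of these cell types and of handling in the members' differences was not tested.

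The swings within non-expanded skin went with other lists too. The fibroblast list was highest at day 7, at 17.62, and lowest at day 0, at 16.32. The keratinocyte list read 15.48, 14.43, 15.45 and 14.18 on the 4 days. At day 14 the hair list averaged 8.95, against 4.50 to 4.85 on the other days, and the adipocyte list 11.25, against 9.05 to 10.55. In expanded skin the hair list averaged 12.84 at day 7. The part of these lists in the members' swings was not tested.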

How the data were processed

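The labels' protocols state that total RNA came from whole skin with an RNeasy Protect Mini Kit and that labelling followed the Affymetrix WT PLUS method. Per the submitters' processing notes the genome build is mm10. The deposited values were read as log2 signals, 1 for each of 28846 probe sets on each of 10 arrays, from 1.87 to 19.88; the log base, background correction and normalization are not given in the sources used here. Values above 16 occurred for 586 probe sets, 5 of them members, so differences may be stretched.

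Symbols were taken from the platform annotation (19572 probe sets, 1 symbol each, all matched by gene identifier to RefSeq, the source of the positions), and for 55 genes with several probe sets the highest mean was used. Genes under the 30th percentile of mean level (4.86) were removed, which left 13653. The background median is that of 23 background probe sets. limma 3.58.1 in R 4.3.3 (lmFit, eBayes, two-sided, Benjamini-Hochberg over all genes tested) was used with the day as a block (3 residual degrees of freedom), for the groups (7) and for the slopes (4). The code was tested on simulated data. The labels give each day to 1 array of each arm, which pairs the arrays. As a check, each array was centred on its arm, and the 2 arrays of a day then correlated at -0.133, -0.171, -0.104 and 0.358 across genes at days 0, 7, 14 and 21, so the pairing rests on the labels. Alternatives covered scaling, filter, probe set rule, trend, block and each array left out.

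The members and lists were chosen with earlier results of these data known. Genes with values on every array were chosen by rule: past the adjusted threshold, or among the 6 largest differences of the expansion, the implantation or either slope, with Adgre1, Csf1r and Ptprc always.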

Additional observations from a re-analysis of the deposited data

Results flagged for a closer look

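Within an arm of 4 arrays, 3 of 68 sets of readings (34 genes in 2 arms) had 1 array farther from the rest than Dixon's test for outliers allows, where chance alone gives about 1 in 20. The count is no higher than that rate. The test treats the 4 readings as repeats, but they are of different days. Cd163 read 10.19 in expanded skin at day 21, against 12.99 to 13.09 on the other 3 days. Ptprc and Fcer1g read 11.18 and 11.35 in non-expanded skin at day 14, against 12.42 to 12.67 and 12.62 to 12.85 on the other days.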

How the results depend on the processing

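With 1 array at each point, every value of a single day rests on that array. In the expansion effect, members at an unadjusted p under 0.05 numbered 5 with quantile normalization and 1 with no replicate block, which makes no use of the pairing by day. With no replicate block 2 genes passed, and 0 to 1 did when a day was left out. For Cd163, Csf1r and Ptprc, the differences ran from -1.87 to 0.23, -0.77 to 0.35 and -0.35 to 0.00 when a day was left out. For the implantation effect, leaving out 1 array gave 0 to 23 members and 0 to 2645 genes past the adjusted threshold, and setting values above 16 to 16 gave 1 gene. For expanded skin against skin without surgery, leaving out 1 array gave 0 to 16 members and 5 to 1850 genes. There 0 members and 27, 33 and 6 genes passed with values above 16 set to 16, with no filter and in the fit of the 6 arrays compared. In the slopes, members at an unadjusted p under 0.05 ran from 1 to 14 in expanded and 1 to 2 in non-expanded skin when a day was left out, with 2 in the latter after centring each array. For the slope difference they ran from 1 to 12, with 2 after quantile normalization or with no filter and 0 with values above 16 set to 16. The share of all genes at an unadjusted p was not computed for these alternatives. Without a day, the median slope ran from -1.86 to 0.29 in non-expanded skin, and the median slope difference from -2.44 to 0.13. The remaining 262 summary values kept within 1.5 times of the count or within 1.01, the spread of the members' mean between non-expanded arrays. That spread is wider than the expansion median of -0.35 itself, so this rule cannot show whether that median is stable. Its change of sign to 0.16 without day 21 is counted among the values kept. The no-block fit changed no adjusted call of a member (0 in both), and the cause of these changes was not tested.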

Other observations

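Marco, a scavenger receptor gene outside the set and singled out after its values were seen, read at most 6.12 on 9 arrays and 4.88 higher than that on the non-expanded array of day 7. Atp6v0d2, a proton pump subunit of osteoclasts and macrophages, read 9.68, 9.46, 6.73 and 4.77 in non-expanded skin at days 0, 7, 14 and 21, and 11.57, 9.31, 8.76 and 8.92 in expanded skin, with 3.92 in telogen and 10.00 in anagen. The calprotectin genes S100a8 and S100a9, of neutrophils and stressed keratinocytes, were highest in expanded skin at day 7, at 16.51 and 17.17, and read 14.49 and 15.20 in non-expanded skin at day 0, against 4.97 and 6.78 in telogen. Among genes of resident macrophages, Folr2, also singled out after its values were seen, read 11.95 to 13.35 in non-expanded and 9.34 to 11.40 in expanded skin, where the arms did not overlap (limma adjusted p = 0.437 for expanded against non-expanded); 1.87% of all genes lay lower in expanded skin in this way. Timd4 did so too, at 5.73 to 6.85 and 4.55 to 5.45, close to or under background, while Lyve1 (10.97 to 14.60 and 11.39 to 12.84) and Mrc1 (15.61 to 17.65 and 15.71 to 17.28) overlapped between the arms. This was not particular to genes of resident macrophages. Of the monocyte list, Plac8 (12.05 to 13.66 and 9.72 to 11.24) and Ly6c2 (10.06 to 11.41 and 9.49 to 10.01) also lay lower in expanded skin without overlap. Vcan, Chil3, F13a1, S100a4 and Nr4a1 of that list overlapped.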
